A study of Mus musculus with 24 samples.

Results

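The genes described here were 10 that encode the kinase mTOR, its partner proteins and the regulators directly above and below it, namely Mtor, Rptor, Rictor, Mlst8, Akt1s1, Deptor, Tsc1, Tsc2, Rheb and Rps6kb1. They were chosen by name, as the rows of the count tables that carry these symbols, with earlier results of these data known. They made up 10 of the 12759 transcripts listed, with 1 canonical transcript per gene. Their mRNA and ribosome footprints were followed in Neuro-2a (N2a) cells, a mouse neuroblastoma line, under 4 conditions. Control cells (ctrl, called WT in the sample characteristics) were made by transfection with an empty Cas9 vector, and eIF4E3 KO cells (KO) with Cas9 vectors whose guides target exons of Eif4e3, the gene of a cap-binding protein of the eIF4E family. Both were put through puromycin selection over repeated rounds, so that each is a selected population and not a clone, and cells of both genotypes had carried a Cas9 vector. Cells of each genotype received 250 nM Torin1 in DMSO, or the same volume of DMSO alone, over 2 h. Each condition had 3 replicates, each from another passage, for RNA-seq as well as ribo-seq. The second ribo-seq replicate of ctrl DMSO cells was not analysed here, which left 2 ribo-seq libraries in that condition and 3 in the others.

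mTOR is a protein kinase that works in a pair of complexes. mTORC1 holds mTOR, the scaffold Raptor (Rptor), mLST8 and the inhibitory subunits PRAS40 (Akt1s1) and DEPTOR, and it promotes protein synthesis, in part through S6 kinase 1 (Rps6kb1) and the 4E-binding proteins that hold back the cap-binding factor eIF4E1. mTORC2 shares mTOR, mLST8 and DEPTOR but is built on Rictor in place of Raptor and phosphorylates AKT. The small GTPase Rheb activates mTORC1 when it is loaded with GTP, and the complex of TSC1 and TSC2 switches Rheb off by acting as its GTPase-activating protein. Torin1 is an inhibitor of the catalytic site of mTOR and acts on both complexes.

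The files held reads (RNA-seq) or ribosome P-sites (ribo-seq) counted over each coding sequence (CDS). The 12 RNA-seq libraries held 17047795 to 28910907 counts over the 12176 transcripts common to their tables, and the 11 ribo-seq libraries 669010 to 5284909 over 10568 transcripts. The shallowest was ctrl DMSO replicate 3 of the ribo-seq, where Rictor rested on 12 footprints and Deptor on 1. Eif4e3 checked the labels: its mRNA was at 12.0 to 18.2 CPM (counts scaled to a common library size) in the 6 ctrl libraries and at 2.88 to 5.04 CPM in the 6 KO libraries, with no overlap, so that transcript remained in the KO population. The paper reports that the eIF4E3 protein was undetectable in KO cells by Western blot, and mRNA does not measure protein. Of 12 markers of sympathetic neuroblastoma 11 were listed, at 2322 to 2834 CPM in sum under DMSO and 2127 to 2197 under Torin1 in ctrl cells, without overlap, and at 2169.7 to 2597 and 2044 to 2187 in KO cells, with overlap. In that sum Tubb3 was the largest, at 923 to 1547 CPM over the RNA-seq libraries. Taken singly, 0 of the 11 passed the mRNA test given below for Torin1 in ctrl cells (2.73% of all transcripts). In KO cells 1 was higher and 2 were lower (9.97% of all transcripts passed). Of 6 fibroblast markers 2 were listed, at 1.41 to 2.06 and 2.22 to 2.65 CPM in sum in ctrl cells, without overlap, and at 1.26 to 2.42 and 2.40 to 2.71 in KO cells, and Col1a1, Col1a2, Col3a1 and Lum were not listed. The part of these shifts in the mRNA changes under Torin1 was not tested. All libraries were made from whole cultures, in which fewer cells of a kind and less RNA per cell cannot be told apart.

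The members' canonical transcripts differ in the length of their 5′ transcript leader (5′ TL), the stretch between cap and start codon, as they do in CDS and 3′ UTR. The start of the leader matters for this pathway, because mRNAs with a terminal oligopyrimidine (TOP) motif, a C at the cap followed by a run of pyrimidines, are a known class of mTOR-responsive mRNAs. The first 20 bases of each annotated transcript are shown for that reason, 5′ to 3′, from GENCODE M21 on GRCm38 (mm10), with the unbroken run of pyrimidines at the start in capitals. Eef2, the gene of elongation factor 2 and a well-known TOP mRNA, stands last for comparison.
Mtor: gggtgttgaggctgggggcc
Rptor: actcgttcctgggtaggaga
Mlst8: TTCTatcgactagctcctcc
Akt1s1: Tgtgccgtttttctcgagga
Deptor: Cggactcgccgacttctcct
Rictor: Tgtgactgaaacccgtcaat
Tsc1: ggaggtgctgcgcgtccaag
Tsc2: gtacgggttgcgcttccggc
Rheb: gtaggtgggagggtcatgac
Rps6kb1: aacttgaggagccagtctgg
Eef2: gttgacgtcagcggtctctt

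None of the 10 annotated starts opened with a C in a run of at least 5 pyrimidines, the C included. This form was found in 297 transcripts, or 2.34% of the 12703 with an annotated CDS. The longest run was the TTCT of Mlst8. Eef2's annotated start lacked the form as well, so an annotated first base need not be the first base used in N2a cells, and the starts used in these cells were not measured. The longest leaders were those of Rptor, on chr11:119603149-119899407 (plus strand), with 661 nt, and of Rheb, on chr5:24802823-24842624 (minus strand), with 388 nt. They stood at percentiles 96.1 and 84.6 of 12700 transcripts, whose median was 171 nt. Rictor, on chr15:6708383-6800401 (plus strand), had the shortest at 20 nt, at percentile 2.38. The leader of Mtor, on chr4:148448611-148557683 (plus strand), was 91 nt long and preceded a CDS of 7650 nt in 58 exons. Tsc1 (chr2:28641237-28691167, plus strand) had a leader of 197 nt with 4 upstream ATG triplets, whereas Tsc2 (chr17:24595937-24632629, minus strand) had one of 121 nt with 0. Rheb's leader held 3 upstream ATGs, and those of Rptor, Deptor (chr15:55112317-55259271, plus strand) and Rps6kb1 (chr11:86498871-86544805, minus strand) held 1 each. Akt1s1 (chr7:44849224-44855421, plus strand) had 2 and Mlst8 (chr17:24473551-24479078, minus strand) 0. An exon of an antisense gene overlaps exonic bases of Rptor (Rptoros) and of Deptor (Gm9920), and since the strand setting of the counting is not stated in the sources used here, reads of these pairs cannot be told apart. RefSeq promoter windows of 250 bases before to 50 after the start (GRCm38.p6) were at hand for 9 members, all but Deptor. The letters GTAAACA or, on the other strand, TGTTTAC, a core motif of FOXO factors, occurred in 0 of these 9 windows and in 3.65% of all 32851.

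Between genes, levels were compared per kilobase of CDS. In ctrl DMSO cells the mRNA of the activator Rheb was highest at 219.9 ± 30.7 CPM per kb (SD, n = 3), followed by the inhibitory subunit Akt1s1 at 91.2 ± 12.7. Both stood apart from all other members. Next came Rptor (29.1 ± 4.91), Rps6kb1 (28.5 ± 4.43) and Tsc2 (28.4 ± 4.96 CPM per kb), whose libraries overlapped in range. A lower trio with overlapping ranges was made up of Mlst8 at 13.1 ± 2.08, the kinase Mtor at 11.8 ± 2.31 and Tsc1 at 10.0 ± 2.07. Rictor (4.40 ± 2.14) and Deptor (1.58 ± 0.789) were the lowest, and their ranges overlapped. Over all 12123 transcripts ranked this way, Rheb was at percentile 93.5, Mtor at 40.0 and Deptor at 13.8. The order of footprints in ctrl DMSO cells again ran from Rheb (278 ± 8.81 CPM per kb, SD, n = 2) through Akt1s1 (46.7 ± 12.8) down to Deptor (3.78 ± 3.48), but Tsc2 stood below Mlst8, with 8.69 ± 0.427 against 13.6 ± 4.09.

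**Figure D1:**
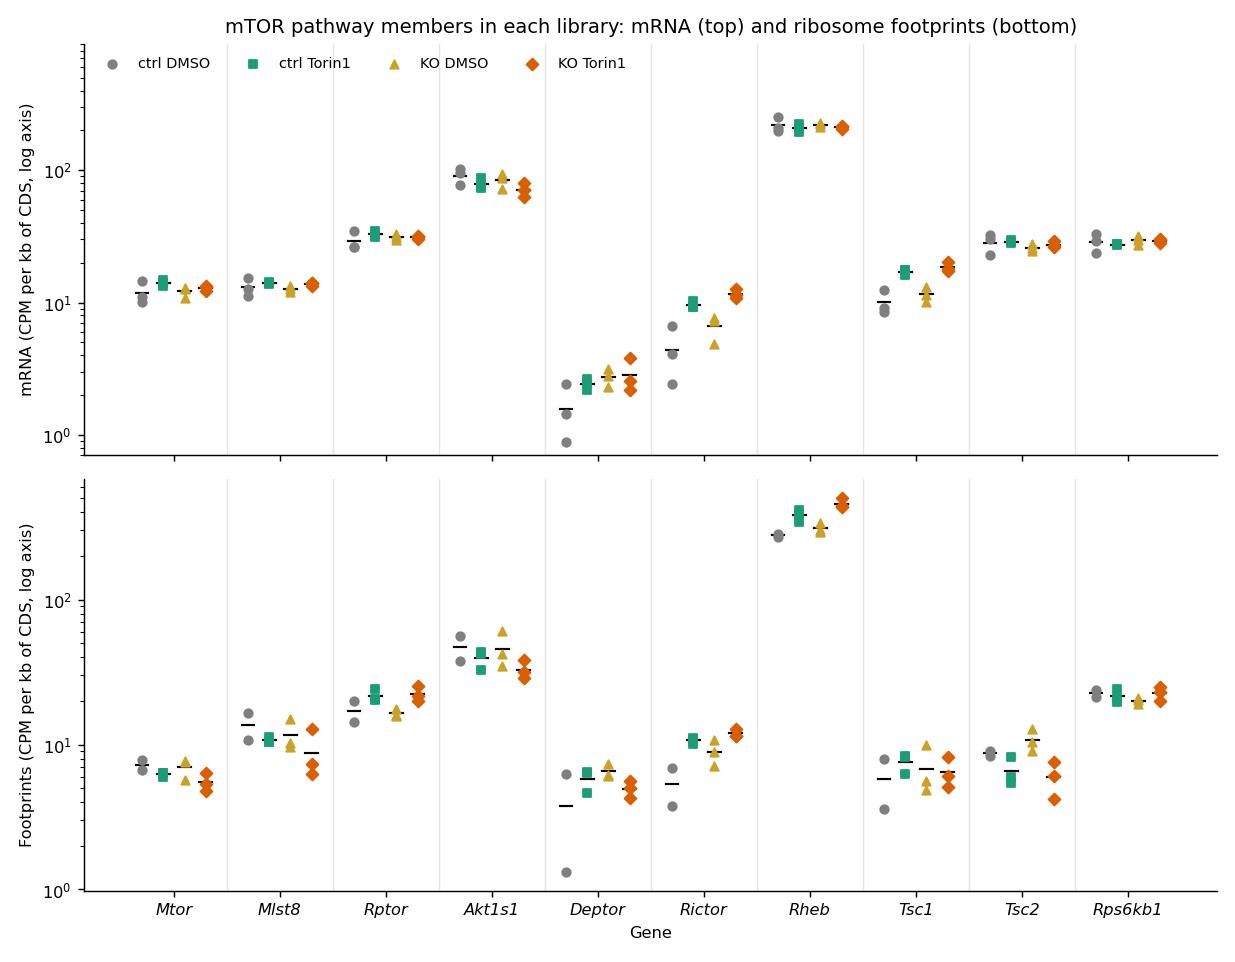
mRNA (top) and footprints (bottom) of the 10 members as CPM per kb of CDS on a log axis, 1 point per library, with a bar at the mean of each of the 4 conditions. By its mean Rheb lies highest and Deptor lowest in every condition and both assays, and the mRNA points of Rictor and Tsc1 lie higher under Torin1 than under DMSO in both genotypes.

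The ratio of footprint CPM to mRNA CPM, the translational efficiency (TE), put Tsc2 far down among the 10376 transcripts in ctrl DMSO cells, at percentile 5.70, with TE values of 0.367 and 0.300 in its 2 libraries. The other member of its complex, Tsc1, stood at percentile 23.0. Akt1s1 (percentile 18.3), Rptor (24.1), Mtor (26.5) and Rps6kb1 (40.5) were also below the middle. Above it stood Mlst8 (56.9), Rictor (65.5), Rheb (68.0) and Deptor (90.7), but the values of Rictor and Deptor rest on few footprints in replicate 3 and differed widely between their 2 libraries, from 0.568 to 1.68 for Rictor and from 0.542 to 4.37 for Deptor.

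The first comparison asked which of these mRNAs moved when mTOR was inhibited for 2 h. Transcripts encoding Rictor, the defining subunit of mTORC2, and Tsc1, the stabilising partner in the TSC complex, rose in both genotypes, while the other 8 did not pass the test in either. In ctrl cells Rictor mRNA was at 21.0, 12.5 and 34.3 CPM under DMSO (replicates 1, 2 and 3) and at 47.8, 47.2 and 53.2 CPM under Torin1. Every Torin1 library was above every DMSO library, and replicate 2 was the lowest of the DMSO libraries. The change was 2.19-fold, or 1.13 on the log2 scale (SE 0.267, edgeR quasi-likelihood test, Benjamini-Hochberg adjusted p = 0.0459). Here and below the SE is the log2 fold change divided by the root of the test's F value, and adjusted p-values run over all transcripts tested. Tsc1 mRNA was at 31.9, 29.8 and 43.2 CPM under DMSO and at 60.9, 56.7 and 61.3 CPM under Torin1, again without overlap, a rise of 1.71-fold (log2 0.77, SE 0.151, adjusted p = 0.0184). In this comparison 2.73% of 10958 transcripts passed the threshold of 0.05 in either direction and 2.05% passed it as higher, against 2 of the 10 members, both higher. The median log2 change was 0.14 over the members and 0.00 over all transcripts.

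In KO cells the same pair of mRNAs rose. Rictor was at 37.4, 24.9 and 39.4 CPM under DMSO and at 64.6, 55.5 and 59.0 CPM under Torin1, and the groups did not overlap. The change was 1.76-fold (log2 0.81, SE 0.140, adjusted p = 0.00403). Tsc1 went from 39.7, 35.2 and 45.8 CPM to 70.4, 60.5 and 62.0 CPM, also without overlap, a change of 1.60-fold (log2 0.68, SE 0.102, adjusted p = 0.00167). The background here was 9.97% of 11004 transcripts called, 6.23% as higher. The other 8 members had log2 changes between -0.23 (Akt1s1) and 0.12 (Mlst8) in KO cells. In ctrl cells the widest of them was Deptor at 0.63 with a 95% interval of -0.06 to 1.32, and Mtor itself was at 0.25 with -0.05 to 0.56. Tsc2 mRNA, whose product works together with that of Tsc1, had log2 changes of 0.03 in ctrl and 0.09 in KO cells.

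The calls in ctrl cells depended on single libraries, and those in KO cells did not. For Rictor in ctrl cells the adjusted p was 0.101 to 0.135 without ctrl DMSO replicate 1 or without any of the 3 ctrl Torin1 replicates, with log2 changes of 1.08 to 1.17, and for Tsc1 it was then 0.0668 to 0.0876 with 0.71 to 0.81. Rictor also passed the threshold no longer with other scaling (adjusted p = 0.0516 with DESeq2 size factors and 0.0924 with library size alone) or in the DESeq2 test (0.0700), and in KO cells in the fit of all 4 conditions (0.0810). Without ctrl DMSO replicate 3, Mtor (log2 0.42, adjusted p = 0.0358) and Deptor (log2 1.06, adjusted p = 0.0424) passed it too. With the replicate number as a block, 16.3% of transcripts were called in KO cells, Rictor and Tsc1 among them. DMSO replicate 2 held the lowest mRNA level of Rictor, Deptor, Mtor, Tsc1 and Rps6kb1 in both genotypes. The highest DMSO library held 2.75 times the Rictor CPM of the lowest in ctrl and 1.58 times in KO cells.

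The same question was asked of ribosome footprints, which follow both mRNA level and translation. Scaled counts are relative to the other transcripts of a library, so a change common to all transcripts is not seen in them. Torin1 raised the footprints of Rictor and Rheb in both genotypes and those of Rptor in KO cells, and it lowered those of Tsc2, the GTPase-activating subunit of the TSC complex, in KO cells. The calls of Rictor and Rptor, and that of Rheb in ctrl cells, depended on single libraries, as given below. Rictor footprints in ctrl cells were at 35.2 and 19.5 CPM under DMSO (replicates 1 and 3) and at 57.2, 55.5 and 51.7 CPM under Torin1. The groups did not overlap, and the lower DMSO value is the one that rests on 12 footprints. The change was 1.75-fold (log2 0.81, SE 0.221, adjusted p = 0.0187). Rheb footprints went from 157.7 and 150.8 CPM to 216.4, 229.96 and 190.1 CPM in ctrl cells, without overlap (1.37-fold, log2 0.45, SE 0.150, adjusted p = 0.0477). These 2 of 10 members compare with 15.6% of 10693 transcripts called, 5.69% as higher.

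In KO cells Rheb footprints were at 167.1, 187.6 and 161.2 CPM under DMSO and at 278.4, 245.1 and 240.6 CPM under Torin1, so that the lowest Torin1 library was well above the highest DMSO library (1.46-fold, log2 0.55, SE 0.114, adjusted p = 0.000257). Rptor footprints were at 62.8, 70.5 and 63.9 CPM and at 86.3, 101.0 and 79.5 CPM (1.33-fold, log2 0.41, SE 0.134, adjusted p = 0.0137). Rictor footprints were at 45.4, 36.6 and 55.2 CPM and at 59.0, 58.9 and 65.7 CPM (1.33-fold, log2 0.42, SE 0.156, adjusted p = 0.0328). For each of the 3 genes the groups did not overlap. Tsc2 footprints were at 54.1, 47.5 and 66.7 CPM under DMSO and at 31.7, 22.0 and 39.4 CPM under Torin1, with every Torin1 library below every DMSO library. They fell to 0.546 of the DMSO level (log2 -0.87, SE 0.181, adjusted p = 0.000238). The 4 members called compare with 40.6% of 10822 transcripts, 18.5% as higher and 22.1% as lower, so that the share of members called was that of all transcripts. The members' median log2 change was -0.23 against 0.02 over all transcripts.

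The members below the threshold in KO cells included Akt1s1 (log2 -0.46, 95% interval -0.87 to -0.06, adjusted p = 0.0618) and Mtor (log2 -0.37, -0.69 to -0.04, adjusted p = 0.0639). Akt1s1 passed it in the exact test (log2 -0.47, adjusted p = 0.0455, with 41.3% of transcripts called). In ctrl cells Rptor (log2 0.45, adjusted p = 0.110), Tsc1 (log2 0.72, adjusted p = 0.134) and Tsc2 (log2 -0.38, adjusted p = 0.269) did not pass. Without the shallow ctrl DMSO replicate 3, Rptor (log2 0.61, adjusted p = 0.0203) and Tsc1 (log2 1.06, adjusted p = 0.0154) did, Rheb no longer did (log2 0.43, adjusted p = 0.0540), and Rictor kept its call at log2 0.63 (adjusted p = 0.0332). Without ctrl DMSO replicate 1 instead, which leaves the shallow library as the only one of its group and assumes that it varies like the others, Rictor's log2 change was 1.49. Rheb in ctrl cells lost its call without any 1 of the 5 libraries (adjusted p = 0.0540 to 0.226), and Rictor there without ctrl Torin1 replicate 2 or 3 (0.0593 to 0.0731). In KO cells Rictor lost it without KO DMSO replicate 2 (log2 0.26, adjusted p = 0.250) or without any KO Torin1 replicate (0.0583 to 0.111), and Rptor without KO Torin1 replicate 2 (0.111). Rheb and Tsc2 in KO cells kept theirs without each of the 6 libraries in turn. DESeq2's test called neither Rictor (0.0575) nor Rheb (0.116) in ctrl cells, nor Rictor in KO cells (0.0701).

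**Figure D2:**
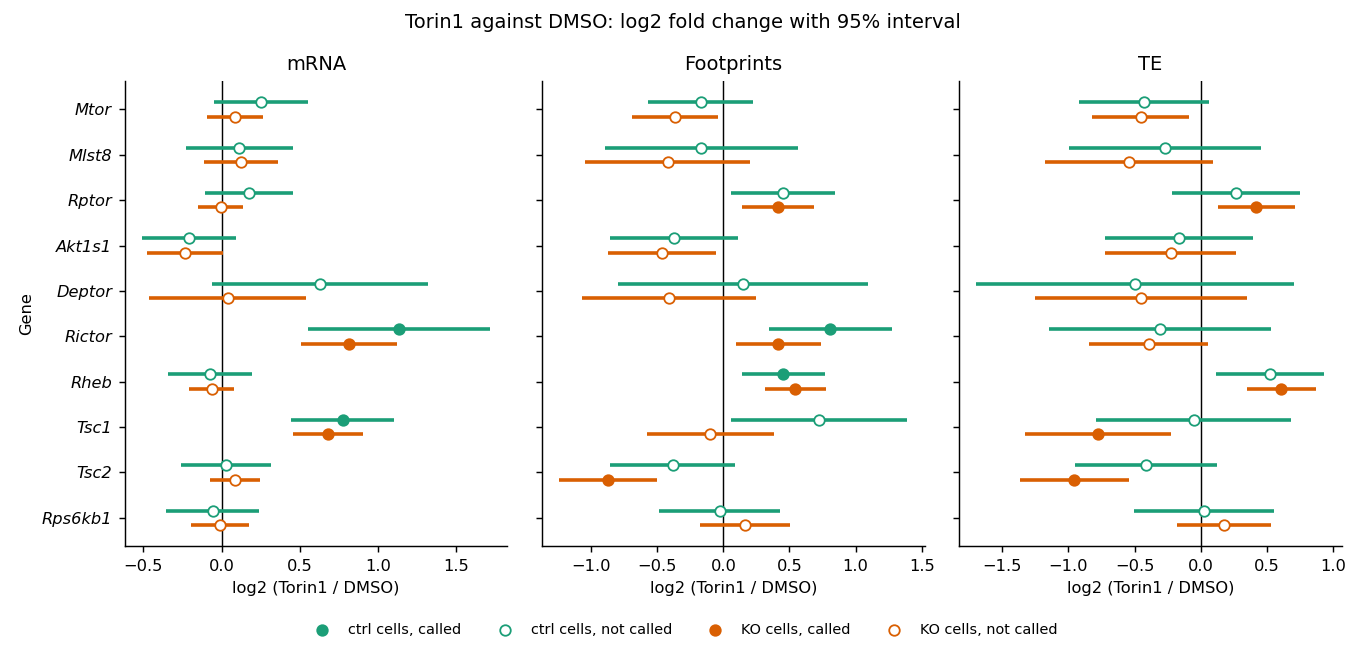
Log2 fold change of Torin1 against DMSO for mRNA, footprints and TE of each member, with 95% intervals, in ctrl (green) and KO cells (orange). Filled points passed an adjusted p of 0.05 and open points did not. Rictor and Tsc1 are filled for mRNA in both genotypes, and Rheb and Tsc2 lie on opposite sides of 0 for footprints and TE in KO cells.

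TE was tested as the interaction of assay and treatment, and so gives the part of the footprint change that the mRNA change does not cover. Relative to other transcripts, Torin1 raised the TE of Rheb and Rptor, the activator and the scaffold of mTORC1, in KO cells. It lowered that of Tsc1 and Tsc2, the subunits of the complex that restrains Rheb. Rheb TE was 1.42, 1.51 and 1.27 under DMSO and 2.44, 2.08 and 2.01 under Torin1, with no overlap (1.53-fold, log2 0.61, SE 0.127, adjusted p = 0.000689). Tsc2 TE was 0.425, 0.328 and 0.493 under DMSO and 0.231, 0.157 and 0.258 under Torin1, again with no overlap, and fell to 0.516 of the DMSO level (log2 -0.95, SE 0.201, adjusted p = 0.000785). With a log2 mRNA change of 0.09 for Tsc2, its footprint and TE changes were of like size. Rptor TE was 0.478, 0.592 and 0.506 and then 0.680, 0.830 and 0.633, without overlap (log2 0.42, SE 0.142, adjusted p = 0.0282). Tsc1 TE was 0.428, 0.552 and 0.751 and then 0.250, 0.348 and 0.461, with overlapping groups (log2 -0.78, SE 0.268, adjusted p = 0.0321). For Tsc1 the mRNA rose while the footprints, at 17.0, 19.4 and 34.4 CPM under DMSO and 17.6, 21.1 and 28.6 CPM under Torin1, had a log2 change of -0.10 (95% interval -0.58 to 0.38).

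These 4 of 10 members compare with 28.4% of 10535 transcripts called, 10.6% as higher and 17.8% as lower. The median TE change was -0.42 over the members and -0.01 over all transcripts. Mtor TE, at 0.438, 0.696 and 0.609 under DMSO and 0.366, 0.524 and 0.404 under Torin1, overlapped between the groups and had a log2 change of -0.45 (adjusted p = 0.0558). The remaining members of the complexes, Mlst8 (-0.54), Deptor (-0.45), Rictor (-0.39) and Akt1s1 (-0.22), did not pass, and neither did Rps6kb1 (0.18), the S6 kinase, the only member besides Rheb and Rptor whose value was above 0. Rheb and Tsc2 kept their calls without each of the 12 libraries in turn. Rptor lost its call without any of 6 of them (adjusted p = 0.0503 to 0.113), namely KO DMSO replicates 1 and 3 and KO Torin1 replicates 1, 2 and 3 of the RNA-seq and KO Torin1 replicate 2 of the ribo-seq, with log2 changes of 0.32 to 0.43. Tsc1 lost its call without KO DMSO replicate 3 (log2 -0.42, adjusted p = 0.209), KO Torin1 replicate 1 or KO Torin1 replicate 2 of the ribo-seq, or without KO DMSO replicate 1 or KO Torin1 replicate 1 of the RNA-seq (0.0523 to 0.133 for these 4). Tsc1 also lost it with limma-voom (0.0770) and with library size alone (log2 -0.52, adjusted p = 0.144), and both Tsc1 (0.0678) and Rptor (0.0666) in the fit of all 4 conditions.

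In ctrl cells the TE test called 4.68% of 10432 transcripts and 0 of the 10 members by edgeR. Rheb alone had an unadjusted p under 0.05. Its TE was 1.12 and 1.38 under DMSO and 1.996, 1.86 and 1.65 under Torin1, with no overlap, and its log2 change of 0.53 (SE 0.197) had an adjusted p of 0.158, and of 0.0467 in the fit of all 4 conditions, which called 8.15% of transcripts. Tsc2 TE was 0.367 and 0.300 and then 0.191, 0.207 and 0.275, below both DMSO values in every Torin1 library (log2 -0.41, 95% interval -0.95 to 0.12). Mtor TE was 0.607 and 0.543 and then 0.420, 0.474 and 0.433, also without overlap (log2 -0.43, -0.92 to 0.06). DESeq2 called 0 members as well, and limma-voom 0.

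**Figure D3:**
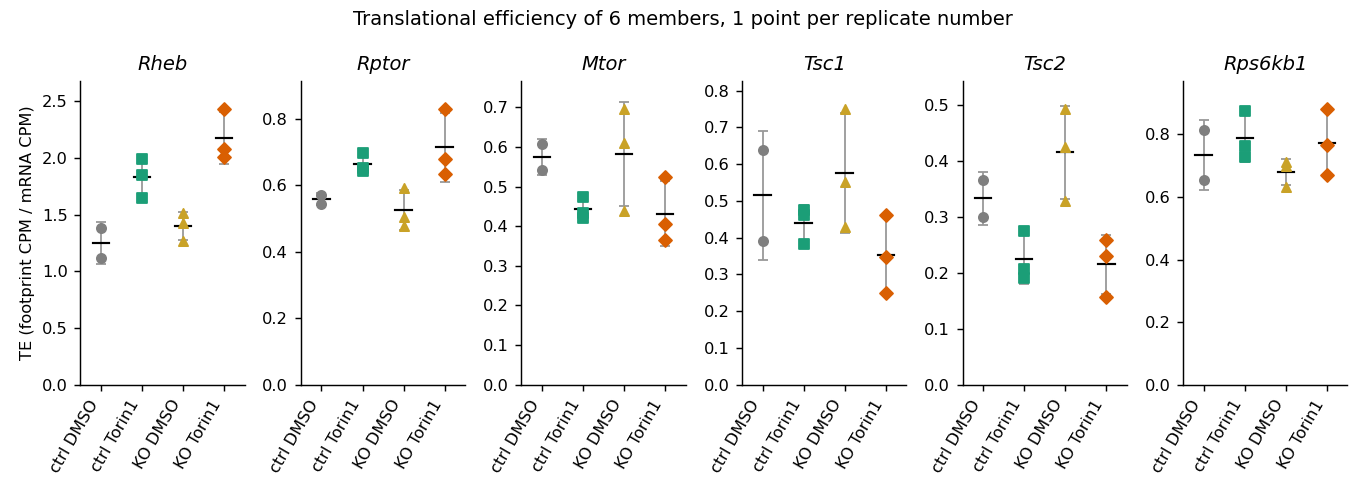
TE (footprint CPM over mRNA CPM, linear axis from 0) of 6 members in each library of the 4 conditions, with the mean as a black bar and the SD as a grey error bar. Under Torin1 Rheb lies above and Tsc2 below all DMSO libraries of the same genotype, and Tsc1 overlaps between the KO groups.

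The scaling between libraries bears on these directions. No scaling used here can show a change in translation common to all transcripts. The paper reports that Torin1 reduced the heavy polysomes in both genotypes, so higher and lower are meant relative to other transcripts. With TMM the median footprint change over all transcripts was 0.02 in both genotypes, and with library size alone it was 0.23 in ctrl and 0.26 in KO cells. The median TE change moved from -0.01 in both to 0.16 and 0.24. With TMM 608 transcripts were higher and 1062 lower for footprints in ctrl cells, against 1691 and 684 with library size alone, and in KO cells 1999 and 2391 against 3766 and 1532. For TE the split was 40 and 448 against 183 and 325 in ctrl cells, and 1119 and 1871 against 2700 and 1192 in KO cells. Rheb, Rptor and Tsc2 kept their sign and call in KO cells under both scalings for footprints and TE, with log2 TE changes of 0.86, 0.67 and -0.71 under library size alone. Rptor and Tsc1 footprints in ctrl cells (log2 0.67 and 0.94, adjusted p = 0.0167 and 0.0423) and Rps6kb1 footprints in KO cells (log2 0.41, adjusted p = 0.0406) passed the threshold under library size alone, which called 22.2% and 49.0% of transcripts in these comparisons, and not under TMM.

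Ratios of partner subunits within a library do not depend on that scaling. They were chosen after the values above were seen and carry no test. Raptor and Rictor are the scaffolds that define the complexes, and per kb of CDS the mRNA ratio of Rptor to Rictor was 7.47 ± 2.96 (SD, range 5.20 to 10.8) in ctrl DMSO cells and 3.40 ± 0.0542 (3.35 to 3.46) in ctrl Torin1 cells. In KO cells it was 4.90 ± 1.06 (4.10 to 6.11) under DMSO and 2.68 ± 0.149 (2.52 to 2.80) under Torin1 (n = 3 each). The ratio was lower under Torin1 in both genotypes, without overlap. In footprints it was 3.65 (2.07 to 5.22, n = 2) under DMSO and 2.05 (1.86 to 2.40) under Torin1 in ctrl cells, and 1.90 (1.48 to 2.46) and 1.87 (1.55 to 2.19) in KO cells, with overlap in both genotypes. The mRNA ratio of Tsc2 to Tsc1 was 2.90 under DMSO and 1.69 under Torin1 in ctrl cells and 2.28 and 1.50 in KO cells, and the footprint ratio 1.74 and 0.870, then 1.68 and 0.938. The footprint ratio of Rheb to its inhibitor Tsc2 was 32.0 and 61.2 in ctrl and 29.7 and 81.7 in KO cells, and its mean mRNA ratio lay between 7.22 and 8.54 in the 4 conditions, with single libraries from 6.42 to 11.1, both in ctrl DMSO cells.

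The levels themselves changed order. By mRNA per kb Tsc1 had rank 8 of the 10 members under DMSO, next to Mtor and Mlst8, and rank 6 under Torin1, above both without overlap, at 17.1 ± 0.738 in ctrl and 18.5 ± 1.52 CPM per kb in KO cells. By footprints per kb Tsc2, at 10.7 ± 1.87 in KO DMSO cells, was at 5.94 ± 1.67 in KO Torin1 cells, where Tsc1 (6.44 ± 1.61), Tsc2, Mtor (5.51 ± 0.810) and Deptor (4.96 ± 0.650) were neighbours with overlapping ranges (n = 3).

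The comparison of genotypes asked whether loss of Eif4e3 shifted these genes. By edgeR's quasi-likelihood test 0 of the 10 members differed between KO and ctrl cells in mRNA, footprints or TE, under DMSO or Torin1. Of all transcripts tested, 0.0183% differed in mRNA, 0.0279% in footprints and 0% in TE under DMSO, and 1.96%, 6.03% and 2.85% under Torin1. At an unadjusted p under 0.05 stood 1 member for mRNA (Deptor), 1 for footprints (Rictor) and 0 for TE under DMSO, and 2 (Rictor and Mtor), 1 (Rheb) and 1 (Rheb) under Torin1. For mRNA under DMSO, DESeq2 and the exact test called 0 members too. With the replicate number as a block, the edgeR test called Rictor (log2 0.67, adjusted p = 0.000311) and Deptor (0.85, 0.0273) there. Under Torin1 it called Rictor for mRNA (0.28, 0.00617). The block called 7.93% and 9.46% of all transcripts in these comparisons, and the labels state no pairing.

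For Rictor the call depended on the fit. Its mRNA, given per library above, overlapped between ctrl (12.5 to 34.3 CPM) and KO cells (24.9 to 39.4 CPM) under DMSO, with a log2 difference of 0.60 (95% interval -0.08 to 1.27, adjusted p = 0.683). Under Torin1 every KO library (55.5 to 64.6 CPM) was above every ctrl library (47.2 to 53.2 CPM), with a log2 difference of 0.28 (SE 0.0733, adjusted p = 0.0703). Under Torin1 it passed in DESeq2's test (adjusted p = 0.0318, with 3.11% of transcripts called) and in the exact test (0.0203, with 4.40% called). Deptor, the inhibitor of both complexes, was at 1.76, 1.08 and 2.99 CPM in ctrl DMSO and 3.44, 2.83 and 3.86 CPM in KO DMSO libraries, which overlap. Its log2 difference was 0.81 (SE 0.324, adjusted p = 0.683). Under Torin1 the Deptor groups overlapped at 2.69 to 3.25 and 2.68 to 4.66 CPM.

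**Figure D4:**
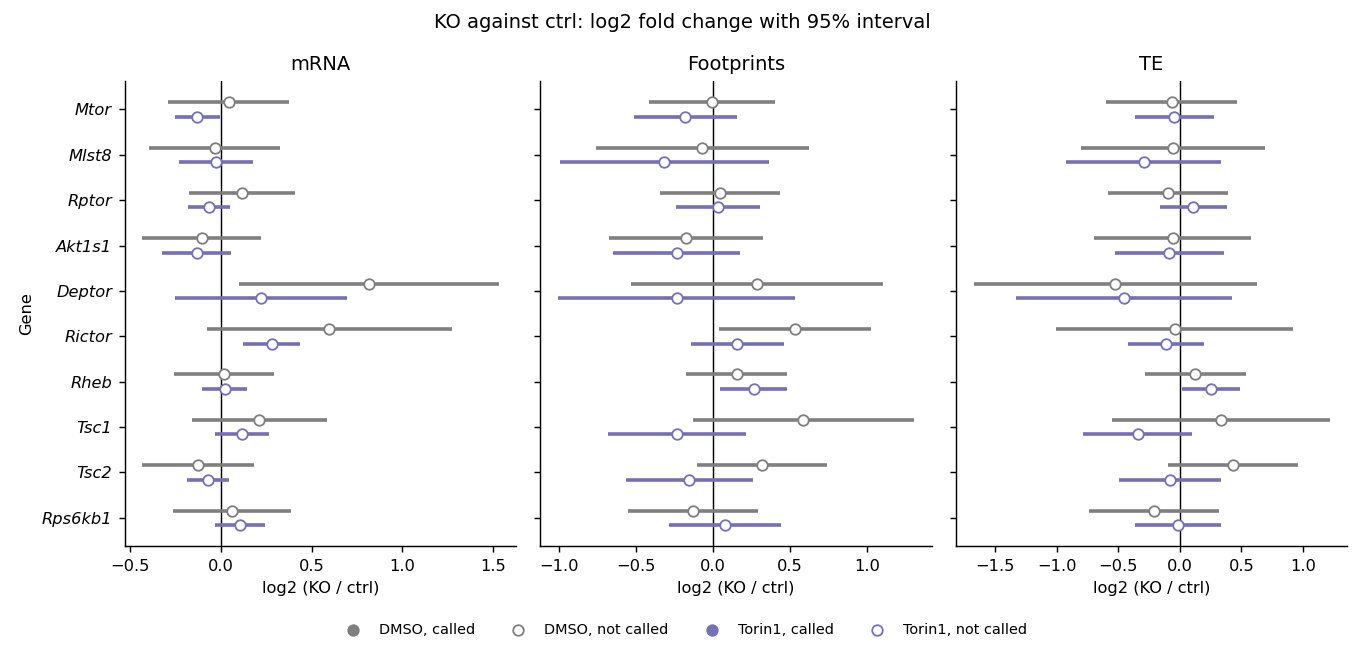
Log2 fold change of KO against ctrl for mRNA, footprints and TE of each member, with 95% intervals, under DMSO (grey) and Torin1 (purple). All points are open, since no member passed an adjusted p of 0.05 in edgeR's quasi-likelihood test without a block. The largest mRNA values are those of Deptor and Rictor under DMSO.

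Whether Torin1 acted differently in the 2 genotypes was tested as the interaction of genotype and treatment, which called 0 of the 10 members in any assay. Over all transcripts it called 0% for mRNA (108 at an unadjusted p under 0.05, and 0 by DESeq2), 0.114% for footprints and 0% for TE (591 at an unadjusted p under 0.05, and 16 by DESeq2). The 4 members whose TE passed in KO cells but not in ctrl cells were therefore not shown to differ between the genotypes. Their interaction terms for TE were 0.11 for Rheb (95% interval -0.34 to 0.56), 0.16 for Rptor (-0.38 to 0.70), -0.53 for Tsc2 (-1.23 to 0.18) and -0.74 for Tsc1 (-1.72 to 0.24). Nearest to the threshold was Tsc1 in footprints, whose log2 change was 0.72 in ctrl and -0.10 in KO cells, with an interaction of -0.83 (-1.68 to 0.02, unadjusted p = 0.0560, adjusted p = 0.745).

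The length of the 5′ TL was set beside the change in TE, since the study is concerned with leader length. The study's result concerns TE of KO against ctrl cells under Torin1, where 0 of the 10 members were called here. The values below are another contrast, Torin1 against DMSO within each genotype, and do not bear on that result. Rptor and Rheb, which have the longest leaders of the 10, were the members whose TE rose in KO cells. Over the members the Spearman correlation between leader length and log2 TE change was 0.527 in ctrl and 0.382 in KO cells (n = 10), and over all transcripts it was 0.169 (n = 10393) and 0.258 (n = 10496). These describe genes measured in the same libraries, which are not independent replicates. The order was not strict: Tsc1 has the third longest leader and had a TE change of -0.78 in KO cells, and Rps6kb1 and Mtor, with leaders of 99 and 91 nt, had 0.18 and -0.45.

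**Figure D5:**
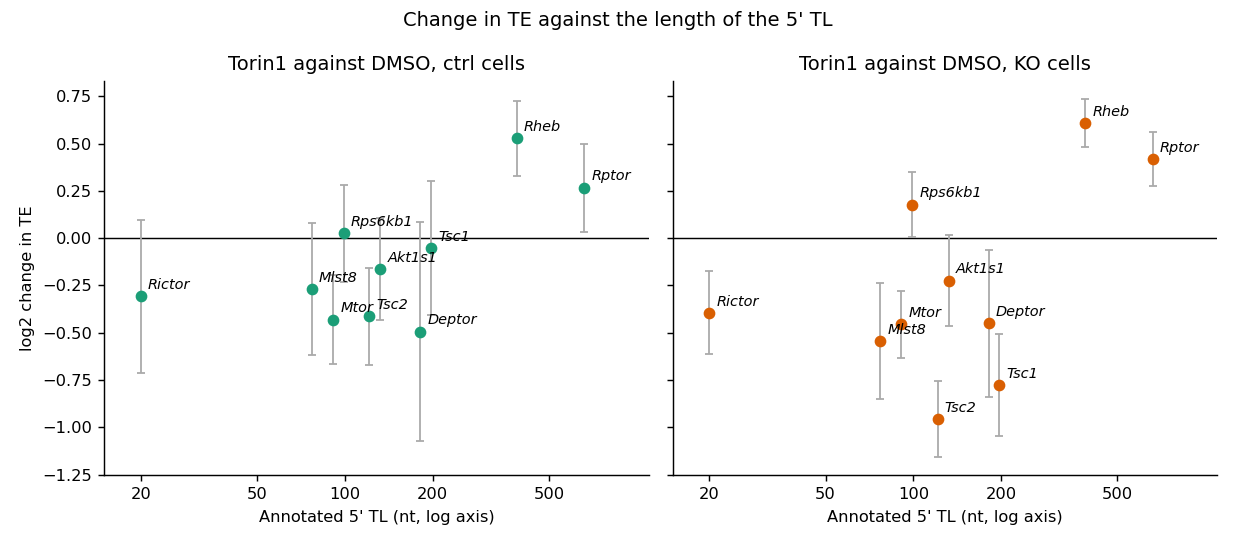
Log2 TE change of Torin1 against DMSO (vertical, with SE) against annotated 5′ TL length in nt (log axis) for the 10 members, in ctrl (left) and KO cells (right). Rheb at 388 nt and Rptor at 661 nt lie above 0 in both panels, and Tsc1 at 197 nt and Tsc2 at 121 nt lie below.

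The wider pathway was taken from 7 lists of 62 symbols, which stand for 59 genes since 3 are older names of others. Of these, 56 were tested in RNA-seq and 55 in ribo-seq and TE. The lists were chosen with earlier results of these data known, so the shares called are a description and carry no test. Under Torin1 their mRNA rose for 4 and fell for 2 in ctrl cells, or 10.7% called against 2.73% of all transcripts, and rose for 6 and fell for 2 in KO cells, or 14.3% against 9.97%. In footprints 8 rose and 8 fell in ctrl cells (29.1% against 15.6%), and 13 rose and 9 fell in KO cells (40.0% against 40.6%). TE rose for 1 and fell for 3 in ctrl cells (7.27% against 4.68%) and rose for 14 and fell for 7 in KO cells (38.2% against 28.4%). The lists' median log2 changes lay between -0.01 and 0.16 in these 6 comparisons.

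Among the amino acid sensors, Sesn2, the leucine sensor Sestrin2 that restrains GATOR2, had the largest mRNA change in the lists, with log2 values of -3.91 in ctrl (adjusted p = 2.54e-07) and -3.62 in KO cells (adjusted p = 1.59e-09). Its footprints fell less, by 2.29 and 2.05 on the log2 scale (adjusted p = 2.29e-05 and 2.01e-07), so that the TE ratio was higher by 1.61 and 1.55. Bmt2, the S-adenosylmethionine sensor SAMTOR, fell in footprints (log2 -1.24 in ctrl and -0.91 in KO cells) and in TE (-1.66 and -1.04). Among the inputs from PI3K, AKT and AMPK, Ddit4, the stress-induced REDD1 that acts through the TSC complex, fell in mRNA (log2 -1.90 and -1.94). Pik3ca, a catalytic subunit of PI3K, rose in footprints (0.87 and 0.71) and, in KO cells, in mRNA (0.42).

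In the list of Rag GTPases, Ragulator and lysosomal partners, Flcn and Fnip1, which form the folliculin complex that acts on the Rag GTPases, rose in mRNA in ctrl (log2 0.92 and 1.21) and in KO cells (0.69 and 0.94). Their footprints rose as well, by 1.52 and 1.59 in ctrl cells and 1.77 and 1.00 in KO cells, and in KO cells the TE of Flcn rose by 1.08. Among the Ragulator subunits Lamtor4 fell in footprints (-0.81 and -0.76) and Lamtor3 rose (0.63 and 0.89), as did the Rag GTPase gene Rragb (0.98 and 0.78). Lamtor3 and Rragb were added after their values were seen. Of the GATOR2 complex, which acts for mTORC1, Mios rose in footprints (0.74 and 0.60) and in TE in KO cells (0.55), and the other 4 subunits did not pass in the 6 comparisons.

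Of the 6 other subunits and assembly factors of the complexes tested, calls under Torin1 were made in KO cells, where the share called over all transcripts was also higher than in ctrl cells. Their interaction of genotype and treatment was called for 0 of the 6 in each assay by edgeR, with 0 at an unadjusted p under 0.05. In KO cells Mapkap1, the mTORC2 subunit SIN1, and Tti1, which helps to assemble mTOR kinases, rose in TE by 0.56 and 0.47 on the log2 scale, Tti1 rose in footprints (0.48), and its partner Telo2 fell in footprints (-0.60). Downstream, Pdcd4, a translation inhibitor that S6 kinase marks for degradation, rose in mRNA (1.47 and 1.61), as did Sgk1, a kinase activated by mTORC2 (1.42 and 1.16). Rps6, the ribosomal protein S6 and substrate of S6 kinase, fell in footprints (log2 -1.74 in ctrl and -1.81 in KO cells) and in TE (-1.47 and -1.73), and Eif4b, another substrate, fell in TE (-1.27 and -1.24). Between genotypes 3 listed genes passed for mRNA under Torin1 (5.36% against 1.96% of all transcripts). Pik3r1, the regulatory subunit of PI3K, was higher in KO cells (log2 0.47, adjusted p = 0.0124 in edgeR's quasi-likelihood test). Tbc1d7, the third TSC subunit (-0.36, 0.0492), and Flcn (-0.28, 0.0464) were lower, both close to the threshold. For footprints under Torin1 Pik3r1 (0.60, adjusted p = 0.0112 in the same test) and Akt2 (0.57, 0.0455) were higher. These were 3.64% of the listed genes, below the 6.03% of all transcripts. The other genotype comparisons called 0 listed genes, against 2.85% of all transcripts for TE under Torin1.

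The transcripts whose footprints most resembled those of Mtor over the 11 ribo-seq libraries were Tnks (Pearson r 0.914), Fanca (0.907) and Snd1 (0.904), among 6660 transcripts with a mean of at least 50 footprints per library, on log2 of CPM plus 1. The libraries share depth and treatment groups, and the coefficients are a description.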

How the data were processed

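RNA-seq and ribo-seq of N2a ctrl and KO cells under DMSO or Torin1 were compared. Per the study's methods and the submitters' processing notes, the authors trimmed reads with cutadapt and mapped them to mm10 (HISAT2) and to canonical transcripts of Ensembl (Bowtie2). They deposited raw counts per CDS, of reads for RNA-seq and of riboWaltz P-sites for ribo-seq, in 1 table per assay and pair of conditions. Cycloheximide was present before lysis. The RNA-seq kit was stranded. Columns with the authors' own edgeR fold changes and p-values, and the tables of TE from RiboDiff, were not used. The number of columns of per-sample values left unused was 0. The RNA-seq table that sets KO beside ctrl under DMSO numbers 2 columns of each genotype alike, and these served as unnumbered replicates. Fits with a block took the numbered columns of the other tables.

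From the deposited counts each pair of conditions was fitted with edgeR 4.0.16 (R 4.3.3) by the quasi-likelihood test with TMM scaling, after a filter for a CPM above 1 in every library of either condition, which removed 86 to 1531 transcripts per table. Adjusted p-values follow Benjamini-Hochberg over all transcripts tested, with a threshold of 0.05. TE was the assay by condition term, with TMM within each assay, in place of RiboDiff. The genotype by treatment term came from fits of all 4 conditions. With 2 or 3 libraries per condition the p-values measure the spread between passages. The scripts were tested on simulated counts.

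The labels state that replicates are different passages but not that a number marks the same passage in every condition. Deviations from the group means of same-numbered libraries correlated above 0.1 in every pair only for RNA-seq of KO cells under Torin1 and DMSO, among comparisons with 3 pairs (0.165 to 0.237, against -0.158 to -0.0473 for other pairs). The same comparison of ctrl cells gave 0.0583 to 0.234, against -0.269 to 0.0530 for other pairs, without overlap but not all above 0.1. Only in KO RNA-seq were numbers taken to pair libraries of different conditions. The main fits held no block in any comparison, that one included, and the fit with a block is given beside it. TE per library set footprints over the mRNA of the same number, which the labels do not state to be the same passage. The TE test did not use these numbers. Alternatives were the replicate block, no filter, DESeq2 size factors, library size alone, DESeq2 1.42.0, edgeR's exact test or limma-voom 3.58.1, 1 fit of all conditions, and leaving out each library. All members were named, and from the pathway lists up to 2 called genes per direction with the smallest adjusted p, apart from some list genes that are counted but not reported here by name. Members and lists were chosen with earlier results of these data known. Annotation came from GENCODE M21 by transcript ID, for 12713 of 12759 transcripts. Promoter windows came from RefSeq. Depth limits precision: intervals are those of the fits.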

Additional observations from a re-analysis of the deposited data

How the results depend on the processing

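Of the member values called in the comparisons above, 86 of 98 kept their call and sign under the alternatives other than leaving out a library, and 75 of 106 when a library was left out. None changed sign. Of 892 values below the threshold 12 passed it, and 26 changed sign, 14 of them under library size alone, with 0 of these past the threshold. The number of members called for mRNA under Torin1 in ctrl cells was 2, and 1 with DESeq2 size factors, library size alone or the DESeq2 test. In KO cells it was 2, and 1 in the fit of all 4 conditions. For KO against ctrl mRNA under DMSO it was 0, and 2 with the replicate block, and under Torin1 it was 0, and 1 with the replicate block, the DESeq2 test or the exact test. For footprints under Torin1 in ctrl cells it was 2, and 1 with no filter, 4 with library size alone and 0 in the DESeq2 test. For TE it was 0 in ctrl cells, and 1 in the fit of all 4 conditions, and 4 in KO cells, and 2 in that fit. The cause of these shifts was not tested. Same-numbered libraries correlated at 0.0398 to 0.737 in RNA-seq and -0.0386 to 0.144 in ribo-seq, and differently numbered ones at up to 0.431 and 0.123. The replicate block was an alternative in every comparison. The labels state no pairing, and outside KO RNA-seq numbers were not taken to pair libraries of different conditions. The block added Rictor between genotypes under DMSO (log2 0.67, adjusted p = 0.000311) and Torin1 (0.28, 0.00617), Deptor under DMSO (0.85, 0.0273), Akt1s1 in KO footprints (-0.48, 0.0205) and Mtor in KO TE (-0.44, 0.0312), and changed no other member's call. Without 1 library at a time the number of members called ran from 0 to 4 for mRNA in ctrl cells, was 2 in KO cells throughout, ran from 0 to 3 for footprints in ctrl cells and from 3 to 5 in KO cells, from 2 to 5 for TE in KO cells, and was 0 throughout for TE in ctrl cells, for all genotype comparisons and for the interactions.

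The share of all transcripts called moved by over 1.5 times in several fits. For mRNA under Torin1 in ctrl cells it was 2.73%, and 12.1% with the block, 6.60% with DESeq2, 6.79% in the exact test and 11% in the fit of all 4 conditions. In KO cells it was 9.97%, and 16.3% with the block and 5.03% in that fit. Between genotypes under DMSO, mRNA calls were 0.0183%, and 7.93% with the block, 0.192% with DESeq2, 0.375% in the exact test, 0.172% in the fit of all 4 conditions, 0% with library size alone and 4 transcripts against 2 with no filter, and under Torin1 1.96%, and 9.46%, 3.11%, 4.40% and 0.0542% in the first 4 of these. Footprint calls were 8.36% with DESeq2 against 15.6% for Torin1 in ctrl cells, 0.0930% in the exact test against 0.0279% between genotypes under DMSO, and 3.49% with DESeq2 and 3.89% in the fit of all 4 conditions against 6.03% under Torin1. TE calls were 8.15% in that fit against 4.68% for Torin1 in ctrl cells, and, between genotypes under Torin1, 5.15% with the block, 4.49% with DESeq2 and 0.694% in that fit against 2.85%, which were 299 transcripts, and 154 with limma-voom. The footprint interaction had 0.331% with the block and 0.246% with DESeq2 against 0.114%. For mRNA in ctrl cells 225 transcripts were higher and 74 lower, and 671 and 550 in the fit of all 4 conditions. The shallow ctrl DMSO ribo-seq library, with 289 footprints over the members in all, limits footprint and TE values in ctrl cells.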
